A study of Homo sapiens with 12 samples.

Results

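The endoplasmic reticulum (ER) folding and unfolded protein response module consists of 33 genes, taken by symbol from a table of 24641 gene symbols. All 33 were measured and all 33 passed the filter on low counts, which left 15648 genes to be tested. Their mRNA was measured in MDA-MB-231, an established line of triple-negative breast cancer cells with mesenchymal features. There were 4 groups of 3 libraries: shRIPOR3 cells in hypoxia, shControl cells in hypoxia, shRIPOR3 cells in normoxia and shControl cells in normoxia. shRIPOR3 is a short hairpin RNA against RIPOR3, and shControl is the control hairpin, whose cells the labels give as genotype WT. Hypoxia was 1% O2 for 24 hours at 37 °C with 5% CO2. The maintenance medium was the same for all cells, at 37 °C with 5% CO2. RIPOR3 was under study for its part in tumour growth and metastasis. The sample names carry 1 hairpin label (sh4) for all shRIPOR3 libraries, so an effect of losing RIPOR3 and an effect particular to that hairpin cannot be told apart.

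Proteins that enter the secretory pathway are threaded into the ER, bound by chaperones, glycosylated, and given disulfide bonds before they leave in coated vesicles. When unfolded proteins build up, sensors in the ER membrane start the unfolded protein response. The kinase and nuclease ERN1 (IRE1) splices XBP1 mRNA into a form that encodes an active transcription factor, ATF6 is cut to release another, and the kinase EIF2AK3 (PERK) slows translation and favours synthesis of ATF4. These factors raise chaperones, disulfide isomerases and the machinery of ER-associated degradation (ERAD), which returns misfolded proteins to the cytosol. Forming disulfide bonds uses oxygen, which makes the pathway a subject of interest in tumour hypoxia.

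The DNA elements through which ATF6 and XBP1 are known to act were looked for in RefSeq promoters (GRCh38.p14, 250 bases before to 50 after a gene's start), on both strands. A promoter was at hand for 31 of the 33 genes; PDIA3 and SEC24D had none. The ER stress element (ERSE: CCAAT, 9 bases of any kind, CCACG) was found in 7 of these 31 genes, against 0.0916% of the 27305 genes with a promoter. ERSE-II (ATTGG, 1 base of any kind, CCACG) was found in 3 of 31, against 0.0696%. Elements and members were both chosen as parts of the same response, so these shares describe the list and test nothing. The sites are shown because the same letters occur in members of different roles. Capitals mark the element, lower case its flanks, and letters run 5′ to 3′ on the gene's strand; elements that begin with CGTGG lie on the other strand. Lines in capitals alone are sites shown without flanks, because the site or its flanks overlap an annotated exon of the same gene.
HSPA5, ERSE, chr9:125241381-125241419, minus strand: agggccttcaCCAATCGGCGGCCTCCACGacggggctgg
CALR, ERSE, chr19:12938374-12938412, plus strand: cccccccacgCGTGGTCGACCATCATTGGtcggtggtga
CRELD2, ERSE, chr22:49918544-49918582, plus strand: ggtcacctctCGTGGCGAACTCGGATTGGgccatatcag
HSP90B1, ERSE, chr12:103930216-103930234, plus strand: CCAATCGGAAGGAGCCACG
HSP90B1, ERSE, chr12:103930321-103930339, plus strand: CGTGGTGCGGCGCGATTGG
XBP1, ERSE, chr22:28800603-28800621, minus strand: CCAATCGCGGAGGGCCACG
PDIA6, ERSE, chr2:10812853-10812871, minus strand: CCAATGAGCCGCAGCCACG
CANX, ERSE, chr5:179698778-179698796, plus strand: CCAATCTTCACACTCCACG
HERPUD1, ERSE-II, chr16:56932015-56932045, plus strand: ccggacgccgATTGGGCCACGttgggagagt
HYOU1, ERSE-II, chr11:119057370-119057400, minus strand: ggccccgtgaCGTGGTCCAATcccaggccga
HYOU1, ERSE-II, chr11:119057264-119057294, minus strand: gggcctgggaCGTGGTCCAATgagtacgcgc
SDF2L1, ERSE-II, chr22:21642104-21642134, plus strand: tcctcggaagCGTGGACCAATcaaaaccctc

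Shorter elements were counted in the same way. The unfolded protein response element (UPRE, TGACGTGG) was present in HYOU1, TXNDC5 and TXNDC11, 3 of 31 genes, against 0.927% of all genes. In HYOU1 it overlapped the upstream ERSE-II. An ATF4 element (TGATGNAA) was present in HERPUD1, 1 of 31, against 4.46%. The core of the hypoxia response element (ACGTG), whose letters also lie inside the UPRE, was present in 18 of 31 (58.1%), against 24.9%. A match is a description of the sequence and no evidence that a factor binds there.

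Library totals ran from 31781324 to 52526813 counts in hypoxia and from 14750734 to 30032858 in normoxia, so depth differed with oxygen. RIPOR3 itself had 9, 3 and 11 counts in shRIPOR3 libraries and 33, 18 and 30 in shControl libraries in hypoxia. In normoxia it had 0, 0 and 1 counts in shRIPOR3 libraries and 7, 3 and 7 in shControl libraries, so knockdown rested on few reads. Group means of the line's mesenchymal markers VIM, CD44 and AXL were 369.8 to 752.3 CPM (counts relative to library size, scaled by the trimmed mean of M-values, TMM). ESR1, PGR and PTPRC were at most 0.528 CPM, CDH1 at most 1.21, PECAM1 at most 5.36, and ERBB2, low in this class of tumour, was detected at 32.1 to 42.6 CPM. Whether the 3 replicates of a group were separate cultures is not stated. The p-values therefore reflect the spread among these libraries alone, and that spread may be technical.

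The 33 genes together took 1.30% ± 0.00913 of all counts in hypoxic shRIPOR3 libraries and 1.37% ± 0.019 in hypoxic shControl libraries (SD, n = 3 each). They took 1.14% ± 0.0107 in normoxic shRIPOR3 libraries and 1.20% ± 0.0158 in normoxic shControl libraries. On this share of library totals the hypoxic groups did not overlap with the normoxic ones. On the TMM scale the summed CPM ran from 12463 to 12672 in hypoxic shRIPOR3, 12949 to 13506 in hypoxic shControl, 11645 to 12044 in normoxic shRIPOR3 and 12247 to 12676 in normoxic shControl libraries. Hypoxic shRIPOR3 and normoxic shControl libraries overlapped there, while within each line every hypoxic library lay above every normoxic one. Divided by exon length, levels in hypoxic shControl cells were highest for the lectin chaperone CALR (999 CPM per kilobase), then HSP90B1 (482), CANX (336), P4HB (203) and HSPA5 (193). The lowest of the 33 was the sensor ERN1 at 0.762 CPM per kilobase. In bulk RNA, a change in every cell and a change in a share of the cells cannot be told apart.

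**Figure D1:**
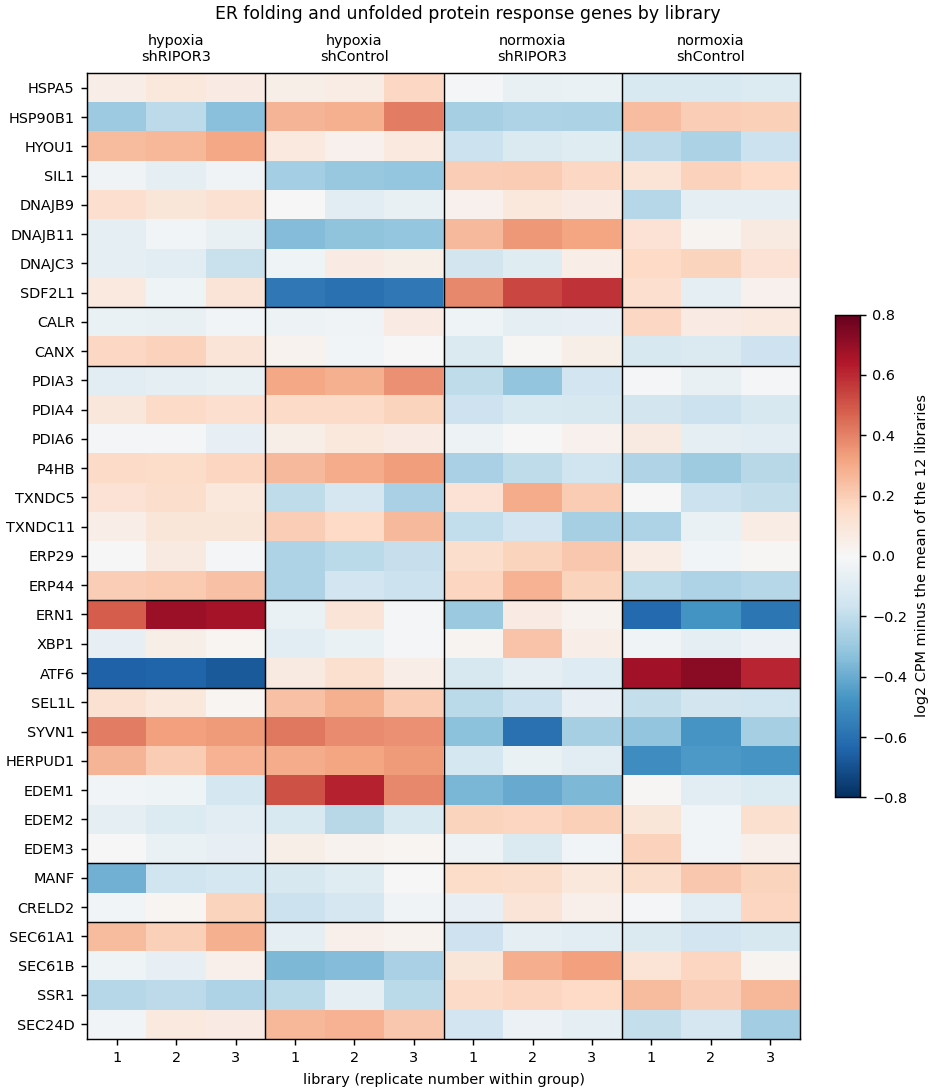
Levels of the 33 genes in each of the 12 libraries, as log2 TMM-scaled CPM minus the gene's mean over the libraries. Columns are libraries by group, and horizontal lines separate roles. From the top these are Hsp70 and Hsp90 chaperones with cofactors, lectin chaperones, and disulfide isomerases and relatives. Below them are sensors with XBP1, ERAD, secreted proteins, and translocon and export genes. Replicates within a group resemble each other: ATF6 is lowest in hypoxic shRIPOR3 libraries (35.8 to 36.6 CPM) and highest in normoxic shControl libraries (87.1 to 94.3 CPM).

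Hypoxia shifted the module in both directions rather than as a block. In shRIPOR3 cells 14 of 33 genes rose and 10 fell, where 55.6% of all tested genes changed (25.2% higher, 30.4% lower). In shControl cells 15 rose and 12 fell, against a background of 64.8% (32.4% higher, 32.4% lower). The median log2 fold change of the 33 was 0.02 in shRIPOR3 cells (all tested genes -0.01, genes over 100 CPM -0.18). It was 0.09 in shControl cells (all 0.02, over 100 CPM -0.22). Of genes over 100 CPM, 82.2% changed in shRIPOR3 and 85.6% in shControl cells, against 72.7% and 81.8% of the members. Groups did not overlap for 24 genes in shRIPOR3 cells and 26 in shControl cells (72.7% and 78.8%), where 61.2% and 67.2% of all tested genes did not overlap. Of genes over 100 CPM, 85.4% did not overlap in each line. Changes were small. SYVN1 and ERN1 rose by 1.5-fold or more in shRIPOR3 cells, and in shControl cells HERPUD1 and SYVN1 rose and SDF2L1 fell by that much; the other members stayed under it. The 2 hypoxia comparisons share no library: 14 genes rose in both, 9 fell in both and none was called in opposite directions. How many of all tested genes were called alike in both was not counted, so this agreement is not read as particular to the module. Scaling by library totals instead of TMM moved the median of all genes up by 0.123 in shRIPOR3 and 0.111 in shControl cells. On that scale 21 members rose and 8 fell in shRIPOR3 cells, 72.4% of calls higher in place of 58.3%. In shControl cells 19 rose and 8 fell, 70.4% higher in place of 55.6%. Calls over all tested genes moved the same way. Of these, 63.4% were higher in place of 45.3% in shRIPOR3 cells, and 61.6% in place of 50% in shControl cells.

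The sensors moved apart. ERN1 stood at 11.5, 13.2 and 13.0 CPM in hypoxic shRIPOR3 libraries, against 6.68, 8.60 and 8.37 CPM in normoxic shRIPOR3 libraries. It stood at 7.90, 8.80 and 8.15 CPM in hypoxic shControl libraries, against 5.34, 5.9 and 5.5 CPM in normoxic shControl libraries. Hypoxic libraries were above normoxic ones in each line without overlap, by log2 0.64 ± 0.0842 in shRIPOR3 cells (± SE, here and for later log2 values; adjusted p = 5.43e-07, edgeR's quasi-likelihood test with Benjamini-Hochberg adjustment over all genes, here and for later adjusted p-values). The change in shControl cells was 0.58 ± 0.0978 (adjusted p = 1.47e-05). ATF6 ran the other way. Its levels were 36.4, 36.6 and 35.8 CPM in hypoxic shRIPOR3 libraries, against 52.3, 54.1 and 53.2 CPM in normoxic ones. In shControl cells they were 60.1, 62.5 and 59.3 CPM in hypoxia, against 90.8, 94.3 and 87.1 CPM in normoxia. ATF6 thus fell by 0.55 on the log2 scale in shRIPOR3 cells (adjusted p = 5.57e-11) and by 0.58 in shControl cells (adjusted p = 3.1e-12), again with no overlap. XBP1 mRNA hardly moved, at 167.3, 181.1 and 176.9 CPM in hypoxic against 178.0, 205.2 and 181.6 CPM in normoxic shRIPOR3 libraries. Its log2 fold change there was -0.11 ± 0.0452, with overlapping groups and an adjusted p of 0.0492. That call was lost without any of 8 single libraries, at adjusted p-values of 0.053 to 0.464, and the sign turned under library totals (0.015). Those 8 include shControl libraries, which entered the same model but not this comparison. In shControl cells it was -0.01 ± 0.0457 (adjusted p = 0.927). The table counts genes, so spliced and unspliced XBP1 mRNA, on which IRE1 activity is usually read, cannot be told apart.

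Of the 6 ERAD genes, 4 rose in both lines: SEL1L, the scaffold of the membrane ubiquitin ligase complex, SYVN1, its ligase HRD1, HERPUD1, a stress-induced partner of that ligase, and EDEM1, which trims mannose from misfolded glycoproteins. EDEM2, of the same family as EDEM1, fell in both, by 0.27 in shRIPOR3 cells and by 0.24 in shControl cells, and EDEM3 passed in neither (0.02 in shRIPOR3 and -0.05 in shControl cells). The fall of EDEM2 in shControl cells did not pass under library totals (-0.13, adjusted p = 0.0784). Nor did it pass with counts thinned to the smallest library (-0.109, adjusted p = 0.29). HERPUD1 had the largest rise of the module in shControl cells, with 39.0, 39.5 and 40.2 CPM in hypoxia against 22.5, 23.1 and 22.9 CPM in normoxia. Those groups lie far apart, at log2 0.80 ± 0.0462 (adjusted p = 2.45e-13), and 12.8% of all tested genes had a higher log2 fold change. In shRIPOR3 cells HERPUD1 stood at 38.3, 36.5 and 38.5 CPM in hypoxia against 28.8, 30.6 and 30.0 CPM in normoxia (log2 0.34 ± 0.0438, adjusted p = 4.2e-07). The hypoxic levels of the 2 lines were close, whereas the normoxic level was higher in shRIPOR3 cells. SYVN1 rose alike in both, by 0.74 ± 0.072 in shRIPOR3 cells and 0.72 ± 0.0725 in shControl cells. EDEM1 stood at 38.8, 38.3 and 35.7 CPM in hypoxic against 30.5, 29.7 and 30.7 CPM in normoxic shRIPOR3 libraries (log2 0.31 ± 0.0567). In shControl cells it stood at 56.0, 60.3 and 51.2 CPM in hypoxia against 39.5, 37.1 and 36.4 CPM in normoxia (log2 0.57 ± 0.0541). SEL1L rose by 0.22 ± 0.0415 in shRIPOR3 cells and 0.41 ± 0.0417 in shControl cells.

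Chaperones of the Hsp70 and Hsp90 families and their cofactors were divided. HSPA5, the ER Hsp70 known as BiP and a standard readout of ER stress, had 734.3, 751.8 and 740.7 CPM in hypoxic shRIPOR3 libraries against 703.2, 679.5 and 683.3 CPM in normoxic ones. In shControl libraries it had 730.1, 736.3 and 793.4 CPM in hypoxia against 650.5, 651.1 and 657.2 CPM in normoxia. Groups did not overlap, but the rise was 0.11 ± 0.0375 in shRIPOR3 cells (adjusted p = 0.0169) and 0.21 ± 0.0376 in shControl cells (adjusted p = 3.82e-05). The call in shRIPOR3 cells was lost without normoxic shRIPOR3 replicate 2 (adjusted p = 0.0682) or 3 (0.0602) or hypoxic shRIPOR3 replicate 2 (0.056). Under library totals the rises were 0.23 and 0.32. HYOU1, which exchanges nucleotide on HSPA5, rose by 0.40 ± 0.0369 in shRIPOR3 cells and 0.28 ± 0.037 in shControl cells. SIL1, another exchange factor of HSPA5, fell by 0.23 in shRIPOR3 and by 0.45 in shControl cells. DNAJB11, an ER J-domain cochaperone of HSPA5, and SDF2L1, which works with it, fell as well. DNAJB11 fell by 0.36 in shRIPOR3 cells and by 0.40 in shControl cells. SDF2L1 had 19.8, 18.3 and 20.1 CPM in hypoxic against 24.5, 27.2 and 28.0 CPM in normoxic shRIPOR3 libraries (log2 -0.46 ± 0.058). In shControl libraries it had 12.6, 12.4 and 12.6 CPM in hypoxia against 20.6, 17.8 and 19.2 CPM in normoxia (log2 -0.62 ± 0.0659). The J-domain cochaperone DNAJB9 passed in neither line.

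HSP90B1, the ER Hsp90 (GRP94), showed little effect of oxygen. In shRIPOR3 libraries it had 1475.0, 1561.3 and 1433.6 CPM in hypoxia against 1503.5, 1522.3 and 1514.3 CPM in normoxia. The groups overlapped, and the log2 fold change of -0.02 ± 0.0418 turned to positive values under several settings, up to 0.099 with library totals. In shControl libraries it had 2185.7, 2201.9 and 2395.2 CPM in hypoxia against 2147.4, 2072.4 and 2066.7 CPM in normoxia. The rise of 0.11 ± 0.0417 (adjusted p = 0.0248) was lost without hypoxic shControl replicate 3, the highest library (adjusted p = 0.149), or without normoxic shControl replicate 2 (0.0726) or 3 (0.0937). DNAJC3, a J-domain cochaperone, was lower by 0.12 in hypoxic shControl cells, and the call was lost without normoxic shControl replicate 1 (adjusted p = 0.0566) or 2 (0.0528) or hypoxic shControl replicate 1 (0.118). Thinning counts to the smallest library (-0.022, adjusted p = 0.739) and library totals (-0.014, adjusted p = 0.808) also lost the call.

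Lectin chaperones bind glycoproteins that carry a last glucose. CANX rose by 0.17 ± 0.0417 in shRIPOR3 cells and 0.14 ± 0.0418 in shControl cells. CALR was at 0.01 ± 0.0394 in shRIPOR3 cells (adjusted p = 0.8) and fell by 0.11 in shControl cells (adjusted p = 0.0227). The fall of CALR was absent under library totals (0.005) and lost without normoxic shControl replicate 1 (adjusted p = 0.112) or hypoxic shControl replicate 1 (0.0887) or 2 (0.09). Of 8 disulfide isomerases and thioredoxin-fold proteins, PDIA3, PDIA4, P4HB and TXNDC11 rose and ERP29 fell in both lines. ERP29 is a thioredoxin-fold protein that is not a redox enzyme, and its fall in shRIPOR3 cells (-0.15) was not called under library totals (-0.032, adjusted p = 0.456). P4HB, protein disulfide isomerase itself and also a subunit of the collagen prolyl hydroxylase, had 973.8, 970.5 and 985.8 CPM in hypoxic against 730.5, 759.6 and 785.0 CPM in normoxic shRIPOR3 libraries (log2 0.36 ± 0.0373). In shControl libraries it had 1049.0, 1076.1 and 1102.2 CPM in hypoxia against 741.0, 718.1 and 748.9 CPM in normoxia (log2 0.55 ± 0.0374, adjusted p = 4.92e-12). PDIA6, TXNDC5 and ERP44 passed in neither line. TXNDC11, at 0.28 in both lines, was at 0.185 in shControl cells without normoxic shControl replicate 1.

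The translocon and export genes split evenly, 2 up and 2 down in each line. SEC61A1, the channel pore, rose by 0.35 ± 0.0397 in shRIPOR3 cells and 0.13 ± 0.0401 in shControl cells. SEC61B, a small subunit of the same channel, fell by 0.27 in shRIPOR3 and by 0.42 in shControl cells. SSR1, of the translocon-associated TRAP complex, fell by 0.39 in shRIPOR3 and by 0.41 in shControl cells. SEC24D, a cargo adaptor of the COPII export coat, had 67.8, 72.5 and 71.9 CPM in hypoxic against 61.9, 66.5 and 65.2 CPM in normoxic shRIPOR3 libraries. In shControl libraries it had 82.9, 83.5 and 79.8 CPM in hypoxia against 60.4, 62.7 and 56.8 CPM in normoxia (log2 0.46 ± 0.0434, adjusted p = 1.64e-09). The rise in shRIPOR3 cells was 0.13 ± 0.0428 (adjusted p = 0.0137) and was lost without normoxic shRIPOR3 replicate 1 (adjusted p = 0.0718) or hypoxic shRIPOR3 replicate 2 (0.0554) or 3 (0.0557). MANF, a stress-induced protein that binds HSPA5 and can be secreted, fell by 0.35 in shRIPOR3 cells and by 0.25 in shControl cells. CRELD2, also secreted, was at 0.03 ± 0.064 in shRIPOR3 cells and -0.15 ± 0.0659 in shControl cells (adjusted p = 0.0453). The groups of the CRELD2 comparison in shControl cells overlapped, and the call was lost without normoxic shControl replicate 3 (adjusted p = 0.378) or hypoxic shControl replicate 1 (0.155) or 2 (0.101).

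**Figure D2:**
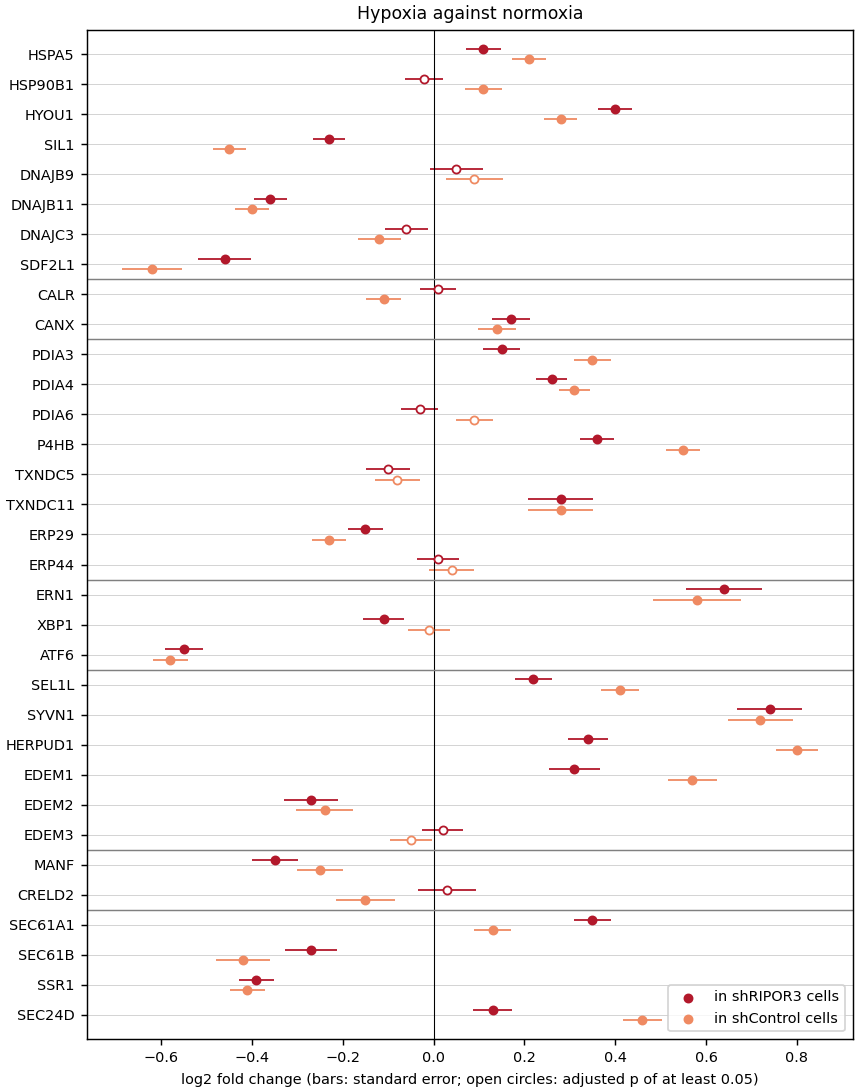
Log2 fold change of hypoxia against normoxia for each of the 33 genes, in shRIPOR3 cells (dark points) and shControl cells (light points); bars are standard errors and open circles did not pass the threshold of 0.05. HERPUD1 shows the widest gap between the lines (0.34 in shRIPOR3 and 0.80 in shControl cells), while SYVN1 and ATF6 nearly coincide.

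Knockdown of RIPOR3 also moved members in both directions. In hypoxia 13 of 33 genes were higher and 10 lower in shRIPOR3 cells, against a background of 61.9% of all tested genes (30.7% higher, 31.2% lower). In normoxia 12 were higher and 7 lower, against 45.7% (25.1% higher, 20.6% lower). The members' shares of 69.7% and 57.6% lie between that background and the share of genes over 100 CPM, 77.8% in hypoxia and 66.2% in normoxia. Median log2 fold changes were -0.03 in hypoxia and 0.04 in normoxia (all tested genes 0 and 0.03). Groups did not overlap for 28 genes in hypoxia and 20 in normoxia (84.8% and 60.6%), where 66% and 51.8% of all tested genes did not overlap. Of genes over 100 CPM, 80.1% in hypoxia and 70.9% in normoxia did not overlap. Without normoxic shRIPOR3 replicate 2 the normoxic count of higher genes was 8. The 2 knockdown comparisons share no library: 9 genes were higher in both, 5 lower in both, and SEC24D was called in opposite directions. Here too the agreement over all tested genes was not counted.

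The sensors again parted, ERN1 up and ATF6 down. ERN1 was higher in shRIPOR3 than in shControl libraries with no overlap in either condition, by 0.60 ± 0.0755 in hypoxia (adjusted p = 2.5e-07) and 0.53 ± 0.106 in normoxia (adjusted p = 0.000208). ATF6 was the member with the largest fall in both conditions: it averaged 36.3 ± 0.431 CPM in shRIPOR3 and 60.6 ± 1.69 CPM in shControl libraries in hypoxia (SD, n = 3 each). In normoxia it averaged 53.2 ± 0.897 CPM in shRIPOR3 and 90.8 ± 3.60 CPM in shControl libraries. The log2 fold changes were -0.74 ± 0.0389 in hypoxia (adjusted p = 5.44e-14) and -0.77 ± 0.041 in normoxia (adjusted p = 2.48e-13), and 91.2% and 94.6% of all tested genes had a higher one. Normoxic shRIPOR3 libraries were thus already below hypoxic shControl libraries in ATF6. XBP1 was higher in normoxic shRIPOR3 libraries by 0.15 ± 0.0464 (adjusted p = 0.00947, but 0.139 without normoxic shRIPOR3 replicate 2, its highest library). In hypoxia its difference was 0.05 ± 0.0445 (adjusted p = 0.331).

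HSPA5 did not differ between hairpins beyond the threshold, at -0.02 ± 0.0373 in hypoxia (95% interval -0.09 to 0.05) and 0.08 ± 0.0378 in normoxia (adjusted p = 0.103). The sign in hypoxia turned without hypoxic shControl replicate 3 (0.029). HSP90B1 was lower in shRIPOR3 cells in both conditions without overlap, by 0.60 in hypoxia (adjusted p = 9.26e-12) and by 0.47 in normoxia (adjusted p = 2.3e-09). These are the libraries given above, with at most 1561.3 CPM in shRIPOR3 against at least 2066.7 CPM in shControl. The cofactors in this role moved in both directions. SDF2L1 was higher in shRIPOR3 cells by 0.63 ± 0.0595 in hypoxia and 0.47 ± 0.0638 in normoxia, and DNAJB11 by 0.28 ± 0.0361 in hypoxia and 0.24 ± 0.0369 in normoxia. DNAJB9 was higher in both as well (0.17 and 0.20), although its normoxic call was lost without normoxic shControl replicate 1 (adjusted p = 0.115) and its hypoxic call with counts thinned to the smallest library (0.051, adjusted p = 0.608). Thinning also lost the normoxic call of DNAJB9 (0.094, adjusted p = 0.391). HYOU1 and SIL1 were higher in hypoxia (0.21 and 0.25) and did not pass in normoxia (0.09 and 0.04). DNAJC3 was lower in both, by 0.14 in hypoxia and by 0.20 in normoxia. Its hypoxic call was lost without hypoxic shControl replicate 2 (adjusted p = 0.0669) or hypoxic shRIPOR3 replicate 3 (0.0858).

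Among disulfide isomerases and relatives, ERP44, which retains ER oxidases and other clients by a thiol bond, had 33.2, 33.5 and 34.1 CPM in shRIPOR3 against 24.4, 26.1 and 25.7 CPM in shControl libraries in hypoxia. In normoxia it had 32.6, 35.1 and 32.7 CPM in shRIPOR3 against 24.9, 24.4 and 24.7 CPM in shControl libraries. The hairpin separated its libraries and oxygen did not, with log2 fold changes of 0.41 ± 0.0438 in hypoxia and 0.44 ± 0.0511 in normoxia. TXNDC5 was higher by 0.31 ± 0.0479 in hypoxia and 0.33 ± 0.0506 in normoxia, and ERP29 by 0.24 in hypoxia and 0.16 in normoxia. In the annotation 60.6% of the exon bases of TXNDC5 belong also to a read-through gene on the same strand, so its counts may hold reads of both. PDIA3, an isomerase that works with CALR and CANX, was lower by 0.39 in hypoxia (343.5, 346.9 and 349.6 CPM in shRIPOR3 against 451.1, 443.9 and 468.1 CPM in shControl libraries). It was lower by 0.20 in normoxia. P4HB was lower in hypoxia by 0.14 and did not pass in normoxia (0.04). PDIA6 was lower in hypoxia by 0.10 at an adjusted p of 0.0409, a call lost without any of 8 single libraries (adjusted p of 0.0528 to 0.155). CANX was higher by 0.15 in hypoxia and 0.12 in normoxia, where the call was lost without any of 5 single libraries (adjusted p of 0.0659 to 0.15). CALR was lower by 0.16 in normoxia and at -0.04 ± 0.0394 in hypoxia.

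Of 6 ERAD genes none was higher and 2 were lower in hypoxia, EDEM1 by 0.57 (adjusted p = 5.39e-10) and SEL1L by 0.17 (adjusted p = 0.000843). In normoxia HERPUD1 was higher by 0.39 ± 0.0504, and EDEM1 and EDEM3 were lower by 0.32 and by 0.13. The EDEM3 call was lost without normoxic shControl replicate 1 (adjusted p = 0.259) or normoxic shRIPOR3 replicate 2 (0.123). SYVN1 and EDEM2 passed in neither condition. SEC61A1 and SEC61B were higher in hypoxia by 0.25 ± 0.0385 and 0.30 ± 0.0552. In normoxia SEC61A1 was at 0.02 ± 0.0413 and SEC61B at 0.16 ± 0.061, with overlapping groups and a call lost without any of 6 single libraries (adjusted p of 0.0623 to 0.215). SEC24D was lower in hypoxia by 0.22 (adjusted p = 5.71e-05). Its normoxic rise of 0.11 ± 0.0459 rested on overlapping groups (adjusted p = 0.0446) and was lost without any of 7 single libraries (0.0526 to 0.26). The hypoxic call of SEC24D held under all 22 settings and the normoxic call under 6 of 22, so the opposite calls depend on the weak normoxic one. Both secreted proteins passed in hypoxia, with CRELD2 higher by 0.17 and MANF lower by 0.15. Without hypoxic shControl replicate 1 or hypoxic shRIPOR3 replicate 3 the adjusted p of CRELD2 was 0.0783 and 0.134. With counts thinned to the smallest library the adjusted p of CRELD2 was 0.159. Without hypoxic shControl replicate 3 or hypoxic shRIPOR3 replicate 1 that of MANF was 0.101 and 0.165.

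**Figure D3:**
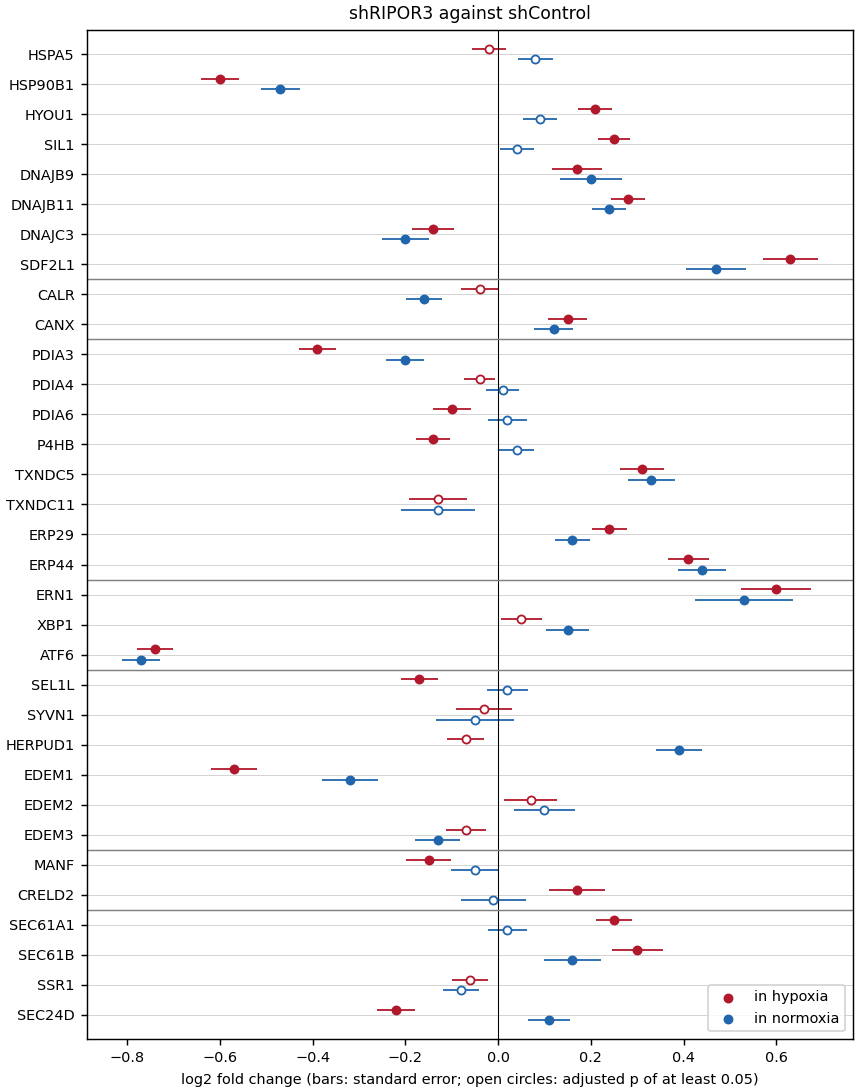
Log2 fold change of shRIPOR3 against shControl for each of the 33 genes, in hypoxia (red points) and normoxia (blue points); bars are standard errors and open circles did not pass the threshold of 0.05. ATF6 and HSP90B1 lie to the left and ERN1, SDF2L1, ERP44 and TXNDC5 to the right in both conditions.

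The effect of hypoxia differed between the 2 lines for 8 of 33 genes (24.2%), 2 with a higher and 6 with a lower effect in shRIPOR3 cells. That share was near the 23.2% of all tested genes (10.9% higher, 12.3% lower) and below the 39.3% of genes over 100 CPM. The difference was tested as the interaction of hairpin and oxygen. Without normoxic shRIPOR3 replicate 3 or hypoxic shControl replicate 2, 2 and 3 genes had a lower effect, and without hypoxic shControl replicate 3, 5 had a higher one. Of the interaction calls over all tested genes, 47% were higher with every library in. That share was 50.7%, 58.7% and 59.5% without these libraries, in the order named. HERPUD1 had the largest interaction, with a rise smaller by 0.46 in shRIPOR3 cells (SE 0.0641, adjusted p = 1.49e-05), followed by SEC24D, smaller by 0.33 (SE 0.061, adjusted p = 0.000346). EDEM1, PDIA3, SEL1L and P4HB also rose less in shRIPOR3 cells, with interactions of -0.25, -0.19, -0.19 and -0.18. SEC61A1 rose more in shRIPOR3 cells (0.22 ± 0.0564, adjusted p = 0.00565), and SIL1 fell less (0.21 ± 0.0506, adjusted p = 0.00323). The interactions of HERPUD1, SEC24D, SEC61A1 and SIL1 passed with each single library left out. For ATF6 and ERN1 the interaction was 0.02 ± 0.0566 (95% interval -0.09 to 0.13) and 0.06 ± 0.131 (-0.19 to 0.32), and for HSPA5 it was -0.10 ± 0.053 (-0.20 to 0.01).

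**Figure D4:**
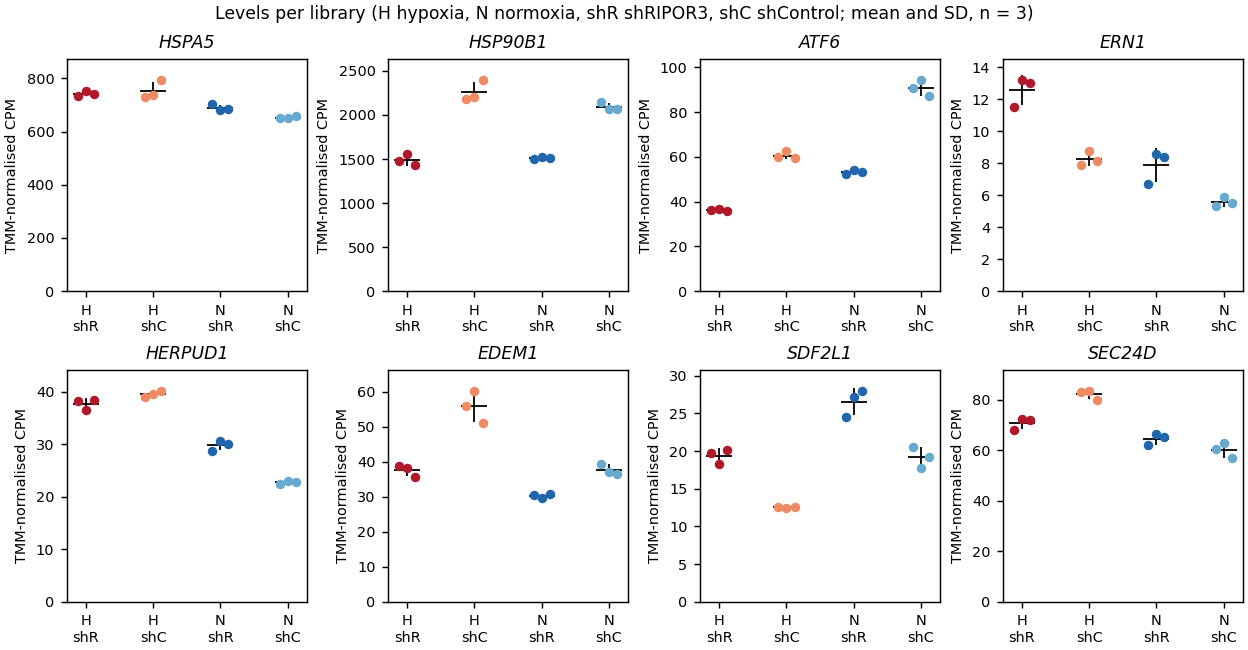
TMM-scaled CPM of 8 genes in every library (points; H hypoxia, N normoxia, shR shRIPOR3, shC shControl), with group mean and SD (n = 3) in black and axes that start at 0. ATF6 steps down with both hypoxia and the hairpin, HSP90B1 separates by hairpin, and HERPUD1 is lowest in normoxic shControl libraries (22.5 to 23.1 CPM).

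Further genes of the pathway were taken from 7 lists and moved unevenly. In the PERK and ATF4 branch, 6 of 12 genes rose and 3 fell with hypoxia in shRIPOR3 cells (median 0.15), and 9 rose and 1 fell in shControl cells (median 0.42). The shares of all tested genes were 25.2% higher and 30.4% lower in shRIPOR3 cells, and 32.4% each way in shControl cells. Knockdown raised 9 and lowered 2 of these 12 in hypoxia (median 0.34), and raised 10 and lowered 1 in normoxia (median 0.72), where 30.7% of all tested genes were higher in hypoxia and 25.1% in normoxia. ATF4 had 448.2, 437.1 and 442.4 CPM in shRIPOR3 against 303.1, 299.2 and 305.1 CPM in shControl libraries in hypoxia. In normoxia it had 513.6, 516.6 and 505.5 CPM in shRIPOR3 against 287.9, 289.0 and 290.2 CPM in shControl libraries. The hairpins did not overlap, and hypoxia lowered ATF4 by 0.21 in shRIPOR3 cells while shControl cells were at 0.07 ± 0.0338 (adjusted p = 0.0937). DDIT3, the stress factor CHOP, was higher in shRIPOR3 cells by 1.01 ± 0.0552 in hypoxia and 1.23 ± 0.0624 in normoxia. EIF2AK3, which encodes PERK, was lower in shRIPOR3 cells, by 0.36 in hypoxia and by 0.26 in normoxia. The interaction was negative for all 12 genes and passed for 5, among them the stress factor ATF3 at -0.88 ± 0.105. Over all tested genes, 23.2% passed in the interaction (12.3% lower), and it was positive for 7364 of 15648. ASNS, which encodes asparagine synthetase, gave the most extreme value of the list in several comparisons but was near 0, at most 0.567 CPM in any library. In the annotation 44.6% of its exon bases belong also to another gene on the same strand.

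Genes of translocation and signal peptidase beyond the members fell with hypoxia in 16 of 19 cases in each line, and none rose in shRIPOR3 and 2 in shControl cells (medians -0.26 and -0.31; genes over 100 CPM -0.18 and -0.22). Of all tested genes 30.4% fell in shRIPOR3 and 32.4% in shControl cells, and of the 2086 genes over 100 CPM 1238 fell in shRIPOR3 and 1281 in shControl cells. SRP72 of the signal recognition particle fell by 0.52 in shRIPOR3 and by 0.58 in shControl cells, and SEC11A, a signal peptidase subunit, by 0.51 in shRIPOR3 and by 0.57 in shControl cells. Knockdown raised 11 and lowered 3 of these 19 in hypoxia, beside 30.7% and 31.2% of all tested genes. It raised 10 and lowered 1 in normoxia, beside 25.1% and 20.6%. SRPRB, a subunit of the receptor for that particle, had 46.2, 44.0 and 45.3 CPM in shRIPOR3 against 22.7, 23.8 and 24.2 CPM in shControl libraries in hypoxia (log2 0.94 ± 0.0428). Of 19 further ERAD genes tested, 2 rose, 8 fell and 9 did not pass with hypoxia in either line (medians -0.03 in shRIPOR3 and -0.06 in shControl cells), beside 30.4% of all tested genes lower in shRIPOR3 and 32.4% in shControl cells. AUP1, an ERAD factor on lipid droplets and the ER, was higher in hypoxic shRIPOR3 libraries by 0.85 ± 0.0372.

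Among 11 genes of ER oxidation and further thioredoxin-fold proteins, 3 rose and 5 fell with hypoxia in shRIPOR3 cells, and 4 rose and 4 fell in shControl cells. The background for hypoxia, here and for the lists that follow, was 25.2% higher and 30.4% lower in shRIPOR3 cells. In shControl cells it was 32.4% higher and 32.4% lower. ERO1A, the oxidase that recharges protein disulfide isomerase, had 109.1, 113.0 and 107.1 CPM in hypoxic against 93.7, 92.4 and 92.8 CPM in normoxic shRIPOR3 libraries. In shControl libraries it had 144.2, 147.0 and 146.3 CPM in hypoxia against 78.3, 80.2 and 80.5 CPM in normoxia. Its rise with hypoxia was therefore smaller in shRIPOR3 cells, by 0.63 on the log2 scale (SE 0.0504, adjusted p = 3.55e-09). The membrane oxidoreductases TMX1 and TMX4 were lower in shRIPOR3 cells, by 0.79 and by 1.12 in hypoxia and by 0.90 and by 1.00 in normoxia. The partners of the ATF6 and IRE1 branches held 8 tested genes, of which hypoxia raised 3 and lowered 2 in shRIPOR3 cells and raised 3 and lowered 4 in shControl cells. CREB3L2, a relative of ATF6, rose with hypoxia by 0.95 ± 0.0566 in shRIPOR3 and 1.22 ± 0.0562 in shControl cells. CREB3L1, of the same family, was lower in shRIPOR3 cells, by 0.77 in hypoxia and by 1.00 in normoxia. For N-glycosylation and glucose trimming, 7 of 15 genes rose and 5 fell in shRIPOR3 cells and 5 rose and 6 fell in shControl cells. For further COPII coat genes, 3 of 12 rose and 5 fell in shRIPOR3 cells, and 4 rose and 7 fell in shControl cells.

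**Figure D5:**
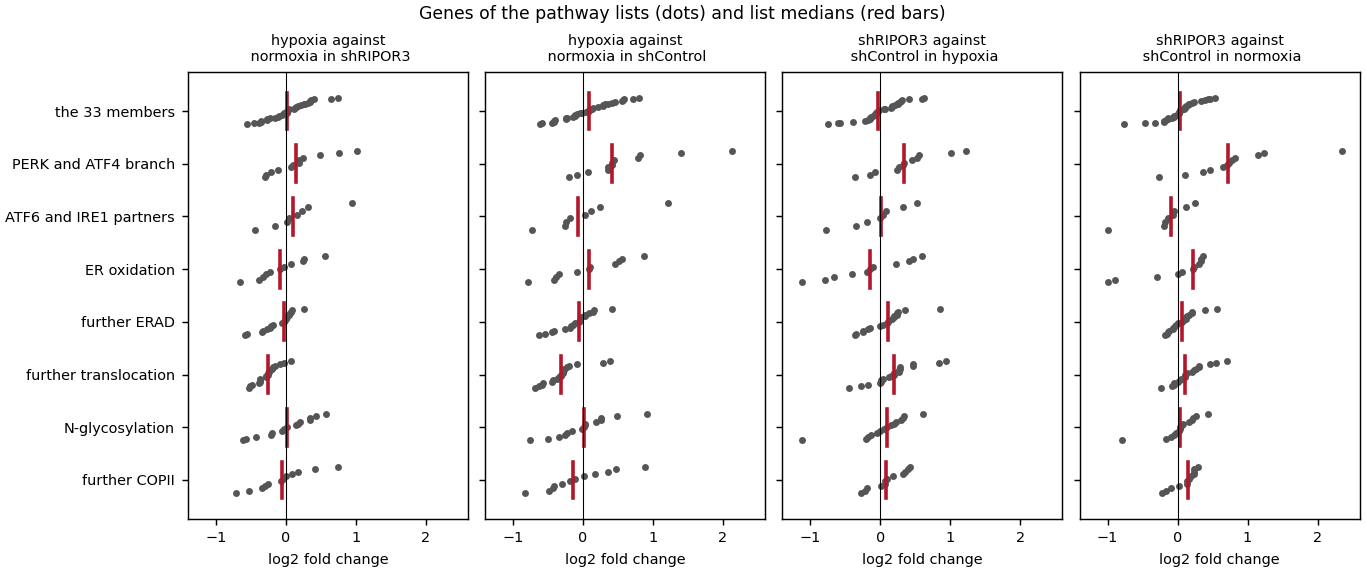
Log2 fold changes of the 33 genes and of the genes of the 7 further lists (dots) with each list's median (red bars), in 4 comparisons. The PERK and ATF4 branch has its highest median for shRIPOR3 against shControl in normoxia (0.72), where the 33 members have a median of 0.04, and further translocation genes have medians of -0.26 in shRIPOR3 and -0.31 in shControl cells with hypoxia.

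Members with and without a stress element in the promoter were set side by side, without a test. Of the 10 with ERSE or ERSE-II, shown above, 4 rose and 2 fell with hypoxia in shRIPOR3 cells and 5 rose and 3 fell in shControl cells. Of the 21 with neither, 8 rose and 8 fell in shRIPOR3 cells and 8 rose and 9 fell in shControl cells. Beside them, 25.2% of all tested genes rose and 30.4% fell in shRIPOR3 cells, and 32.4% rose and 32.4% fell in shControl cells. Knockdown raised 4 and lowered 2 of the 10 in each condition, and of the 21 it raised 9 and lowered 6 in hypoxia and raised 7 and lowered 4 in normoxia. The background for knockdown was 30.7% higher and 31.2% lower in hypoxia, and 25.1% higher and 20.6% lower in normoxia. Genes with the same element did not share a direction: HERPUD1 and HYOU1 rose with hypoxia in both lines and SDF2L1 fell in both, although all carry ERSE-II.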

How the data were processed

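Each of 12 libraries, 3 per group, was made from 2 µg of total RNA with a stranded mRNA kit, per the labels' protocols. The authors deposited raw counts per gene symbol. Tools listed without roles in the submitters' processing notes are STAR 2.5.3a, featureCounts and fastp 0.23.4, with GRCh38 as build. Neither annotation nor strand setting is given, so reads of overlapping genes may be shared.

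All 12 libraries entered 1 model of counts in edgeR 4.0.16 under R 4.3.3. Each group had its own coefficient, scaling was by TMM, and filterByExpr kept 15648 genes. Quasi-likelihood F-tests were adjusted by Benjamini and Hochberg over all genes, at a threshold of 0.05. The biological coefficient of variation was 3.75%. The SE of a log2 fold change is its size divided by the square root of F. Replicates differed by more than sampling noise (chi-square per degree of freedom 2.49 to 5.62). Levels per kilobase use GENCODE 29 exon lengths. Of the 24641 symbols 24 had been turned into dates and were kept.

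Members, roles, further lists, motifs and tests were chosen with earlier results of these data known. The text names HSPA5, HSP90B1, XBP1, ATF6 and ERN1 throughout, up to 6 members with the largest rise and fall per comparison, members that differ from their role, and up to 3 genes per further list by smallest p. Of the genes so taken from the further lists, only some are printed. EIF2AK3 and ASNS were named outside that rule. GPX7 was not analysed here, and ERN2 and DERL3 had too few counts to test. Protein sequences were not used. The alternatives left out each library in turn, used DESeq2 1.42.0, 3 other scalings or 2 other filters, thinned counts, fitted just the pair of groups, added a replicate block or lowered the threshold to 0.01. The pipeline was tested on simulated data.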

Additional observations from a re-analysis of the deposited data

Results flagged for a closer look

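In 8 members the effect of hypoxia differed between shRIPOR3 and shControl cells in edgeR's test of the interaction (effect in shRIPOR3 minus effect in shControl, log2). These are 24.2% of the members, beside 23.2% of all tested genes and 39.3% of genes over 100 CPM. The effect was lower in shRIPOR3 cells for HERPUD1 (-0.46), SEC24D (-0.33), EDEM1 (-0.25, adjusted p = 0.0208), PDIA3 (-0.19, adjusted p = 0.015), SEL1L (-0.19, adjusted p = 0.0232) and P4HB (-0.18, adjusted p = 0.0138). It was higher for SEC61A1 (0.22) and SIL1 (0.21). Group means show the pattern for HERPUD1: 37.7 CPM in hypoxic and 29.8 CPM in normoxic shRIPOR3 libraries, and 39.6 CPM in hypoxic and 22.8 CPM in normoxic shControl libraries. Depth was higher in hypoxia in both lines, and every library was therefore also thinned to the smallest total, under which the interactions of EDEM1 (-0.26, adjusted p = 0.0781) and SEL1L (-0.165, adjusted p = 0.0722) no longer passed and the other 6 did. Single libraries decided 4 of the 8 calls. EDEM1 did not pass without normoxic shControl replicate 3, normoxic shRIPOR3 replicate 3, hypoxic shControl replicate 2 or hypoxic shRIPOR3 replicate 3 (adjusted p of 0.0613 to 0.134). SEL1L did not pass without normoxic shControl replicate 1, normoxic shRIPOR3 replicate 3, hypoxic shControl replicate 2 or hypoxic shRIPOR3 replicate 3 (0.0677 to 0.149). P4HB did not pass without normoxic shRIPOR3 replicate 3 or hypoxic shControl replicate 2 or 3 (0.061 to 0.08), nor PDIA3 without normoxic shRIPOR3 replicate 3 (0.0721) or hypoxic shControl replicate 3 (0.0932).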

How the results depend on the processing

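Of 101 member calls over the 5 comparisons, 77 kept their direction and side of the threshold under every setting tried, and 24 were lost under at least 1. All 12 libraries shared 1 model, so a call could also be lost without a library outside its comparison. Such libraries are among the single libraries counted above for XBP1, PDIA6, CANX, SEC61B and the normoxic call of SEC24D. Counts of members higher and lower stayed within 1.5 times under every other setting for hypoxia in each line and for knockdown in hypoxia. Leaving out single libraries gave 12 to 14 higher and 9 to 11 lower with hypoxia in shRIPOR3 cells, and 14 to 16 and 9 to 12 in shControl cells. For knockdown it gave 12 to 13 and 8 to 10 in hypoxia, and 8 to 13 and 6 to 8 in normoxia. For the interaction it gave 2 to 5 higher and 2 to 6 lower, while 46.4% to 59.5% of the calls over all tested genes were higher. With only the 2 groups compared, knockdown in normoxia gave 8 higher and 8 lower. For the interaction, DESeq2 gave 4 higher, no low-count filter 3 lower, thinning 4 lower and a threshold of 0.01 2 lower.

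Signs turned for values near 0. CALR with hypoxia in shControl cells was 0.005 under library totals. XBP1 there was 0.012 under upper-quartile scaling, 0.105 under library totals (adjusted p = 0.0388), 0.003 without a filter, 0.023 with a filter of 1 CPM, 0.033 thinned and 0.013 without hypoxic shControl replicate 1, and in shRIPOR3 cells 0.015 under library totals. HSP90B1 with hypoxia in shRIPOR3 cells was 0.005 under upper-quartile scaling, 0.099 under library totals (adjusted p = 0.0335), 0.002 without a filter, 0.001 with a filter of 1 CPM, 0.012 with only the 2 groups, 0.018 without hypoxic shControl replicate 2 or 3 and 0.003 without hypoxic shRIPOR3 replicate 3. HSPA5 under knockdown in hypoxia was 0.005 without a filter and 0.029 without hypoxic shControl replicate 3. The interaction of ERN1 was -0.013 without normoxic shRIPOR3 replicate 1, and that of ATF6 was -0.01 thinned. With each single library left out in turn, the lowest values of these results were -0.023 for XBP1 in shControl cells, -0.058 for HSP90B1 and -0.043 for HSPA5, and the highest interaction of ERN1 was 0.145. The causes were not tested, except that library totals raise all hypoxia values by construction. With hypoxia in shRIPOR3 cells, upper-quartile scaling also shifted all tested genes, by a median of 0.029. Without hypoxic shControl replicate 2 or 3 that median shift was 0.041.

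Libraries with the same replicate number did not deviate together (correlations -0.0194 to 0.0254 over 18 pairs), so the numbers were not taken to pair them. A replicate block left the member counts of every comparison as they were (2 higher and 6 lower for the interaction). ERN1 had the largest SE among the members, at 0.106 for knockdown in normoxia. Whether depth or the spread of replicates set it was not tested.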
